A study of Mus musculus with 4 samples.

Results

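The endothelin system of the embryonic mouse heart was followed through its 5 genes measured here, the ligands *Edn1* and *Edn3*, the receptors *Ednra* and *Ednrb* and the processing enzyme *Ece1*, out of 32285 genes counted. The genes were chosen by symbol, and they were chosen because *Edn1* was higher in the chamber endocardium of mutant hearts, so that difference is described below and not tested. Hearts were collected at E10.5, and 4 single-cell libraries were made from them in droplets (10x Genomics), in which each captured transcript carries a unique molecular identifier (UMI) and is counted once. Libraries 5 and 7 came from controls (Tie2flfl), which carry a floxed *Tie2* gene (symbol *Tek*, the receptor for angiopoietins) and no Cre. Libraries 6 and 8 came from *Tie2-cko* embryos (Nfatcre-Tie2flfl), which carry the same floxed gene together with Cre knocked into *Nfatc1*, a gene active in the endocardium. Cre and the loss of *Tie2* therefore cannot be told apart, and the methods place hearts of both genotypes in 1 litter of mixed 129 and C57/BL6 background and of both sexes.

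Endothelin peptides are made as long precursors, and the endothelin-converting enzyme encoded by *Ece1* performs the last cut that turns big endothelin into the active peptide. *Edn1* encodes endothelin-1, which endothelial cells secrete and which binds both receptors, and *Edn3* encodes endothelin-3, which acts mainly through the B receptor. The A receptor (*Ednra*) sits on muscle and on neural crest cells and signals through Gq proteins, while the B receptor (*Ednrb*) is typical of endothelium, where it also clears endothelin-1, and of the neural crest lineages that give melanocytes and enteric neurons. In embryos, endothelin-1 acting on *Ednra* patterns the pharyngeal arches and great vessels.

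The promoter of *Edn1* is shown because *Edn1* is the gene for which the genotypes differed, and because GATA and AP-1 elements near its start are known to drive it in endothelium. The window of 300 bases, from 250 before to 50 after the RefSeq start site, lies on the forward strand at chr13:42301226-42301525 of GRCm38.p6. Both strands were searched for 3 motifs, and the matches are in capitals. Factors of the GATA family, which act in endothelium and muscle, were searched for as AGATAA. The AP-1 complex of Jun and Fos proteins was searched for as TGACTAA. FOXO proteins, which TIE2 signaling holds back, were searched for as GTAAACA.

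Edn1: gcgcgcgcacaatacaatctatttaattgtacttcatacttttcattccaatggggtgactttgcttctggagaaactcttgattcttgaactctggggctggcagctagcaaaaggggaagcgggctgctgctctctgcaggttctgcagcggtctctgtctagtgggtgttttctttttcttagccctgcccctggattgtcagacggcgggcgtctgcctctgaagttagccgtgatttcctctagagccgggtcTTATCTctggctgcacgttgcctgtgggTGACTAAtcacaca

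The window held 1 GATA match, on the reverse strand and 8 bases after the start site, and 1 AP-1 match, 36 bases after it, with no overlap between the matches. The letters GTAAACA were not in it. Over all 32851 promoter windows of the same length, 11.2% held the GATA letters, 2.35% the AP-1 letters and 3.65% the FOXO letters. None of the 3 motifs was found in the single windows of *Edn3*, *Ednra* and *Ednrb* or in the 4 windows of *Ece1*. GATA and AP-1 were searched for because such elements were already known near the *Edn1* start, so these 2 matches are no independent result. The genome shares give only how common the letters are. A match or its absence describes these letters in these windows.

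In GRCm38 all 5 genes are annotated as protein-coding. *Edn1* lies at chr13:42301476-42307990, *Edn3* at chr2:174760619-174784042 and *Ece1* at chr4:137862237-137965229 on the forward strand. *Ednra* lies at chr8:77663031-77724464 and *Ednrb* at chr14:103814625-103844402 on the reverse strand.

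After filtering, 33419 cells were kept, with a median of 14898 to 25740 UMIs per cell in the 4 libraries, and any pair of libraries shared at most 29 cell barcodes. The cells fell into 27 clusters, which were named from marker genes with the endothelin genes left out of the clustering, so that each name means cells like that type. In 13 cell types every library held at least 20 cells, and every order of levels below is among these 13 and leaves out the rarer cells. Chamber endocardial cells (EdCs), marked by *Emcn*, *Npr3* and *Gpr182*, numbered 374, 137, 593 and 471 in libraries 5, 6, 7 and 8, and cushion EdCs, marked by *Nfatc1* and *Wnt4*, numbered 258, 129, 435 and 442. Libraries 5 and 6 held 534 and 558 foregut mesenchyme cells and libraries 7 and 8 held 2 and 1, so that libraries 5 and 6 stood apart from libraries 7 and 8 in the cell types they held. A level is the number of UMIs per 10000 averaged over the cells of a type in 1 library, and *Tek* was 0.945 ± 0.0828 (SD, n = 2 libraries) in control and 0.133 ± 0.0108 in *Tie2-cko* chamber EdCs, a log2 fold change of -2.63 (SE 0.19, edgeR adjusted p = 0.0037). In cushion EdCs *Tek* fell by 2.06 on the log2 scale (SE 0.26, edgeR adjusted p = 0.042) and was past the threshold in the fit as reported but not under every alternative, where the adjusted p reached 1.00. In vascular ECs its level was 0.583 and 0.813 in controls and 0.742 and 0.453 in *Tie2-cko*, which overlap.

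*Edn1* was highest in cushion EdCs. Its level in cushion EdCs was 1.19, 1.55, 1.98 and 2.11 in libraries 5, 6, 7 and 8, the highest mean (1.71 ± 0.418, SD, n = 4 libraries) of the 13 cell types. Chamber EdCs came next with a 4-library mean of 0.790, and their ranges overlapped (0.349 to 1.23 against 1.19 to 2.11) only through *Tie2-cko* 8, the other 3 chamber values being 1.11 or less. Within every library the cushion level exceeded the chamber level, by 2.51 and 5.68 times in controls 5 and 7 and by 1.40 and 1.72 times in *Tie2-cko* 6 and 8.

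Outside the endocardium, *Edn1* was found in a *Pax9*-led epithelium (0.526 ± 0.282), vascular ECs (0.513 ± 0.376), cushion mesenchymal cells (MCs, 0.375 ± 0.0993) and epicardial cells (0.218 ± 0.0384), whose neighbouring ranges overlapped in this order. The range of chamber EdCs overlapped that of the *Pax9*-led epithelium, and their second place rests on the *Tie2-cko* libraries. In controls 5 and 7 chamber EdCs held 0.474 and 0.349, below the 0.484 and 0.813 of this epithelium. In control 7 they also lay below vascular ECs (0.838) and cushion MCs (0.491). The *Pax9*-led cells carry transcripts of the pharyngeal endoderm (*Pax9*, *Pax1*), and library 6 held only 30 of them with a level of 0.155, against 0.484 to 0.813 in the other libraries. In vascular ECs *Edn1* followed the pairs of libraries and not the genotype, with 0.194 and 0.182 in libraries 5 and 6 and 0.838 and 0.840 in libraries 7 and 8. Every remaining type was below every library of the epicardial cells, the highest single value being 0.122 in the sinus venosus (SV) and atrioventricular canal (AVC) cardiomyocytes (CMs) of library 6. Pooled CMs held 0.0224 to 0.0295, and red blood cells, which are not known to make endothelin, held 0.00243 to 0.00995. Red blood cells serve here as a guide to free RNA in the droplets, but may understate it. Unnamed clusters of cells with few UMIs, led by foregut mesenchyme genes or by CM genes, held 0 to 0.0579 and 0 to 0.0411.

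The EdCs were few, but they held much of the *Edn1* RNA. Cushion EdCs made up 2.27% to 5.15% of the cells of a library and held 31.0% to 37.0% of its *Edn1* UMIs. Chamber EdCs held 18.7% and 9.18% of the *Edn1* UMIs in controls 5 and 7, and 28.5% and 19.1% in *Tie2-cko* 6 and 8. Cushion MCs held 14.9% to 26.3%, epicardial cells 6.86% to 8.94% and all CMs together 6.97% to 8.67%, the last from 24.8% to 48.6% of the cells. These shares depend on how many cells of each type were captured.

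**Figure D1:**
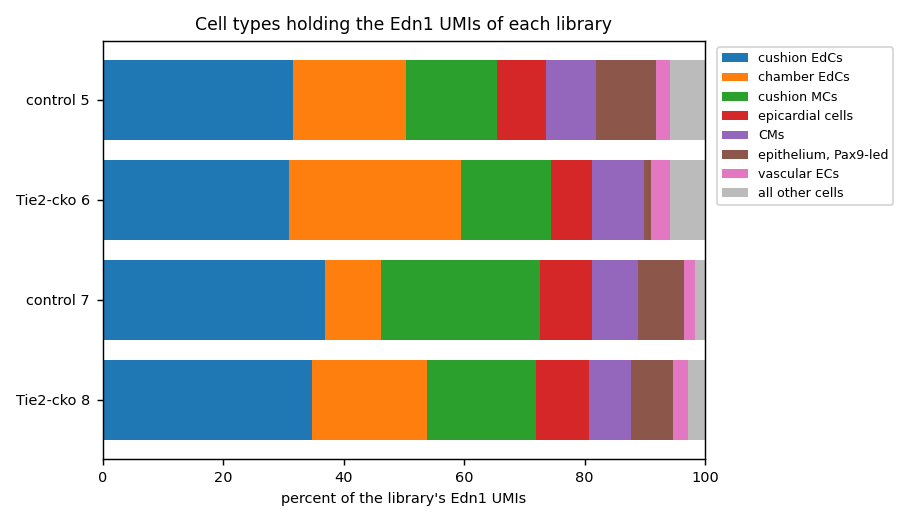
Share of each library's *Edn1* UMIs (x axis, percent) held by 7 cell types and by all other cells, for the 4 libraries (rows). Cushion EdCs held 31.0% to 37.0% in every library, and the chamber EdC share was 18.7% and 9.18% in controls and 28.5% and 19.1% in *Tie2-cko*.

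*Edn1* in chamber EdCs was the value for which these genes were chosen, and it is given as a description. The level was 0.474 in control 5, 0.349 in control 7, 1.11 in *Tie2-cko* 6 and 1.23 in *Tie2-cko* 8, from 337, 260, 553 and 726 UMIs. Both *Tie2-cko* libraries lay above both control libraries, with means (± SD over 2 libraries) of 0.412 ± 0.0886 and 1.17 ± 0.0844, a ratio of 2.84. The fitted log2 fold change was 1.42 (SE 0.23). It was 1.83 without control 5 and 1.08 without control 7, the highest and lowest of 13 alternatives. In that contrast 0.00866% of all 11551 genes tested passed the threshold of an adjusted p of 0.05 (edgeR quasi-likelihood test), and that gene was *Tek*.

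More of the *Tie2-cko* chamber EdCs held an *Edn1* UMI. When every cell was thinned to 5500 UMIs, so that libraries of unequal depth could be compared, 14.7% of chamber EdCs in control 5 (95% exact binomial interval 11.2% to 18.9%) and 9.04% in control 7 (6.79% to 11.7%) held an *Edn1* UMI. In *Tie2-cko* 6 it was 32.0% (23.9% to 40.9%) and in *Tie2-cko* 8 it was 32.8% (28.4% to 37.4%). These intervals cover counting error only, and 21, 40, 12 and 32 shallower cells were left out of libraries 5, 7, 6 and 8. The mean number of *Edn1* UMIs in the cells that had one was 1.81 and 1.96 in controls and 1.80 and 1.94 in *Tie2-cko*, values that overlap. Without thinning the shares were 23.0%, 17.03%, 54.7% and 43.9% in libraries 5, 7, 6 and 8.

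In red blood cells, read as a guide to background, the share was far lower. Red blood cells held an *Edn1* UMI in 0.177%, 0.207% and 0.328% of thinned cells of libraries 5, 6 and 7 and in 0 of 173 cells of library 8, which allows a share of up to 1.73%. Their median depth was 22799 to 60176 UMIs, against 11039 to 27317 in chamber EdCs. In CMs the share was 1.18% to 1.46%. In cushion EdCs it was 33.2% and 43.9% in controls 5 and 7 and 39.4% and 49.6% in *Tie2-cko* 6 and 8, so that the *Tie2-cko* chamber EdCs came close to the lowest cushion share.

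**Figure D2:**
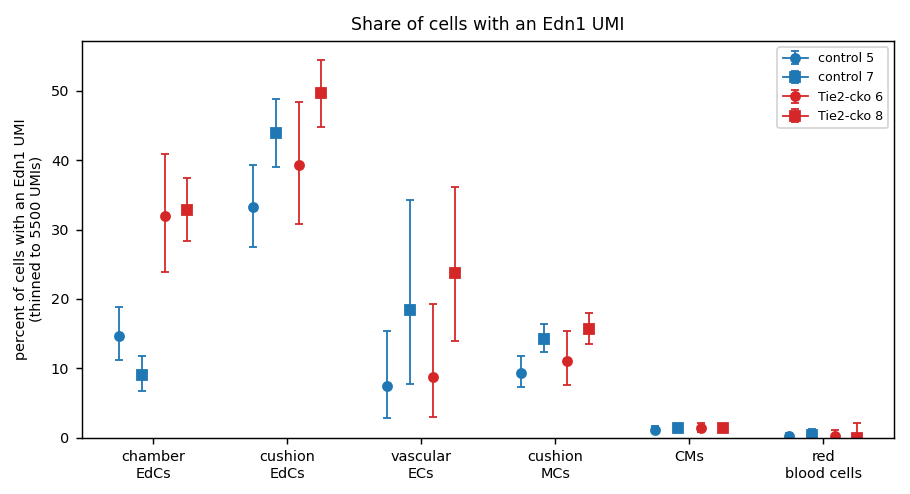
Percent of cells with at least 1 *Edn1* UMI after thinning each cell to 5500 UMIs (y axis), by cell type (x axis) and library (blue, control; red, *Tie2-cko*), with 95% exact binomial intervals that cover counting error only. In chamber EdCs the controls sit at 14.7% and 9.04% and the *Tie2-cko* libraries at 32.0% and 32.8%, while the genotypes overlap in cushion EdCs.

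Markers of other cells were read in the same chamber EdCs. The summed level of the 7 cushion EdC markers was 2.16 and 2.34 in controls and 2.13 and 2.61 in *Tie2-cko*, which overlap. The 8 mesenchymal markers summed to 1.02 and 1.05 in controls and to 1.36 and 1.58 in *Tie2-cko*, without overlap. The 7 vascular markers summed to 0.968 and 0.577 against 1.33 and 0.894, and the 8 CM markers to 7.92 and 10.1 against 5.32 and 11.5, both with overlap. The 6 red blood cell markers summed to 75.1 and 34.1 in controls and to 12.7 or less in both *Tie2-cko* libraries. The same list stood at 44.3 and 19.0 against 13.6 and 7.66 in CMs. Of the other lists, the neuronal (0.118 and 0.151 against 0.211 and 0.269) and atrial CM markers (0.805 and 0.759 against 0.893 and 0.898) were higher in both *Tie2-cko* libraries, and the cushion MC (5.57 and 5.99 against 5.35 and 4.98), macrophage and megakaryocyte markers were lower in both. No list of another type had all of its markers at 0 in these cells, and the part of these lists in the *Edn1* difference was not tested.

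Outside chamber EdCs no member of the system passed the threshold in any cell type. Over the 13 other groups of cells (12 types and all CMs pooled), 51 combinations of member and group entered the edgeR fits, 0 passed, the lowest adjusted p was 0.9995 and 1 had an unadjusted p under 0.05. DESeq2 also called 0 of its 65, and the block for libraries 5 and 6 against 7 and 8 called 2 of 51, given below. The groups of these 2 calls were SV and AVC CMs and pharyngeal and neural-crest MCs. There the block called 147 of 12514 and 105 of 11468 of all genes. In the edgeR fits without the block the share of all tested genes that passed was itself small, 0.0442% in cushion EdCs, 0.0340% in vascular ECs, 0.0420% in epicardial cells, 0.0540% in the *Pax9*-led epithelium and 0% in every other group, so the absence of calls is no result about these genes. With 2 libraries per genotype a p that misses the threshold does not show equal levels, and the standard errors give the precision.

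**Figure D3:**
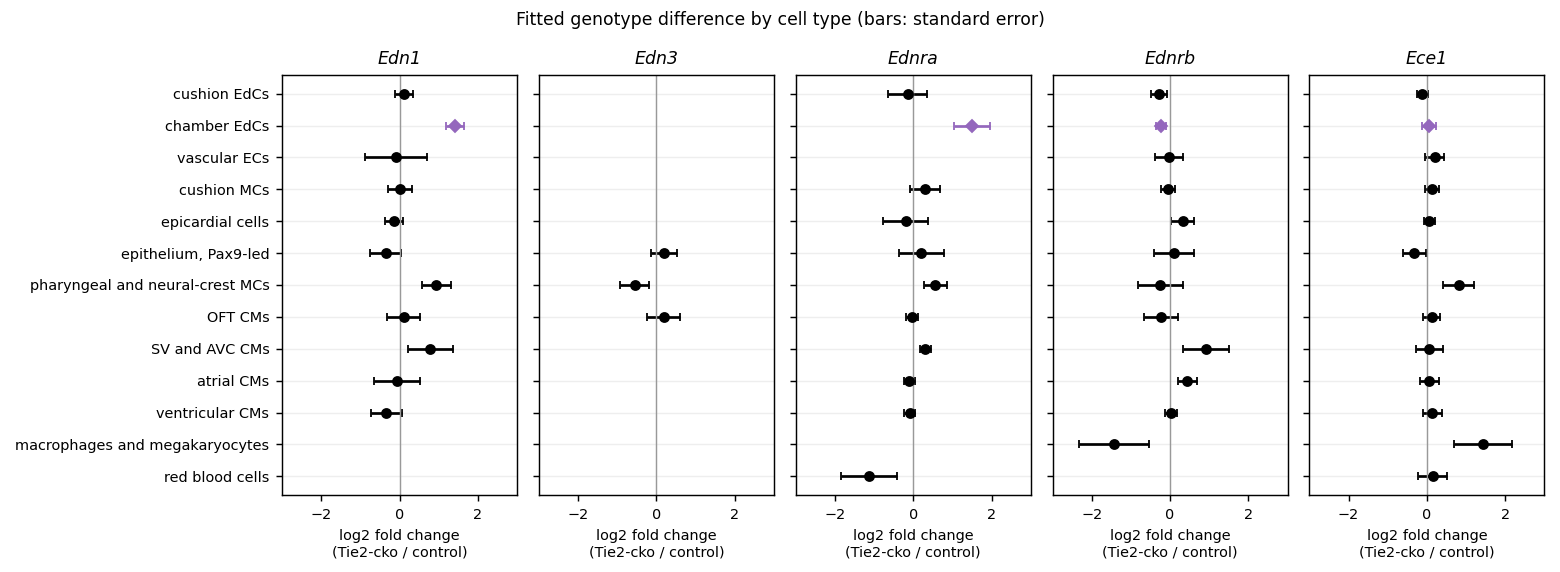
Fitted log2 fold change of *Tie2-cko* over control (x axis) with its standard error (bars) for each gene (panels) and cell type (rows), where the gene had enough counts to be fitted. Chamber EdCs (purple diamonds; *Edn1*, 1.42) are the contrast that chose the genes and are not tested, and no value outside chamber EdCs passed the threshold in these fits.

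In cushion EdCs *Edn1* averaged 1.59 ± 0.558 in controls and 1.83 ± 0.395 in *Tie2-cko* (± SD over 2 libraries), and the genotypes overlapped. The log2 fold change was 0.10 (SE 0.23), with -0.15 without control 5 and -0.25 without *Tie2-cko* 8. *Tek* was lower in these cells as well, and whether the *Edn1* difference was unlike that of chamber EdCs was not tested, since the chamber contrast chose the gene. In cushion MCs, which derive from the cushion endocardium, the log2 fold change was 0.00 (SE 0.31), in epicardial cells -0.14 (SE 0.24) and in vascular ECs -0.09 (SE 0.79). In pharyngeal and neural-crest MCs it was 0.94 (SE 0.36), the 1 member value with an unadjusted p under 0.05 (0.029, edgeR, adjusted p = 0.9995). There *Tie2-cko* 8 held 0.117 and the other libraries 0.0449 to 0.0532, so that 1 library carried the difference. In SV and AVC CMs *Tie2-cko* 6 held 0.122, against 0.0315 to 0.0687 in the other libraries. The same cells of library 6 also stood high for *Ednrb* (0.315 against 0.0458 to 0.125). *Ece1* (0.173 against 0.0547 to 0.0985) and *Tek* (0.0258 against 0.00201 to 0.0188) were also highest in these cells of library 6. Their 8 endothelial markers summed to 0.680, the lowest of the 4 libraries, and the source of these values was not tested. With finer clustering (resolution 1.2) 57.0% of all SV and AVC CMs kept this name.

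*Edn3* was barely detected in EdCs at this depth. Cushion EdCs of the 4 libraries held 0 UMIs in 1264 cells, and chamber EdCs held 2 UMIs in 1575 cells. Among the 13 types the level was highest in the *Pax9*-led epithelium, at 0.179, 0.363, 0.117 and 0.169 in libraries 5, 6, 7 and 8, and next in pharyngeal and neural-crest MCs, at 0.160, 0.0625, 0.0991 and 0.125. These ranges overlapped, and both lay above the 0.0139 to 0.0203 of outflow tract (OFT) CMs. The genotypes overlapped in both types, with log2 fold changes of 0.20 (SE 0.33) and -0.56 (SE 0.37). The 30 epithelial cells of library 6 and the 72 MCs of the same library held 15 and 8 *Edn3* UMIs, so their levels are coarse. Other epithelial cells, outside the 13 types with 9 cells in library 7, held 0.130, 0.145, 0.665 and 0.188, the third from 2 UMIs.

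The ligand and the A receptor lay in different cells. Among the 13 types *Ednra* was highest in CM types, at 0.436, 0.387, 0.464 and 0.406 in atrial CMs of libraries 5, 6, 7 and 8, above every library of the other 12 types. SV and AVC CMs (0.241 ± 0.0275), OFT CMs (0.220 ± 0.0125) and ventricular CMs (0.204 ± 0.0108) followed with overlapping ranges, and pharyngeal and neural-crest MCs (0.147 ± 0.0301) lay below these. CMs held 73.4% to 94.0% of the *Ednra* UMIs of a library, from 24.8% to 48.6% of the cells. This share also rises with depth, and CMs had medians of 21071 to 46880 UMIs, against 11012 to 17137 in pharyngeal and neural-crest MCs. Outside the 13 types, foregut mesenchyme averaged 0.220 over its 1095 cells and a further mesenchymal cluster 0.198 over its 317 cells. Both were near the CM types other than atrial CMs. In EdCs the mean was 0.0229 (cushion) and 0.0143 (chamber), beside 0.0064 in red blood cells, and 45 UMIs were counted over all chamber EdCs (6, 16, 8 and 15 in libraries 5, 6, 7 and 8). Their fitted log2 fold change of 1.502 (SE 0.45) rests on these few UMIs, and after thinning 0.567%, 0%, 0.723% and 1.14% of the cells held one, against 0.207% to 0.578% of red blood cells. The 0 of 125 cells in library 6 allows a share of up to 2.40%.

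In pooled CMs *Ednra* did not move with the genotype beyond its error. Controls held 0.236 and 0.2501 and *Tie2-cko* 0.233 and 0.248, a log2 fold change of -0.02 (SE 0.12). Atrial CMs were lower in both *Tie2-cko* libraries (0.387 and 0.406 against 0.436 and 0.464, -0.10, SE 0.14). SV and AVC CMs were higher in both (0.243 and 0.278 against 0.233 and 0.212, 0.31, SE 0.15), as were pharyngeal and neural-crest MCs (0.176 and 0.160 against 0.144 and 0.106, 0.56, SE 0.29). None of these differences passed the threshold. In thinned SV and AVC CMs 13.6%, 8.82%, 12.2% and 13.8% of cells of libraries 5, 6, 7 and 8 held an *Ednra* UMI. These shares had no order by genotype. In pharyngeal and neural-crest MCs the shares were 5.66%, 12.5%, 4.89% and 8.14%, higher in both *Tie2-cko* libraries. In thinned atrial CMs 19.9%, 22.6%, 20.1% and 18.1% of cells of libraries 5, 6, 7 and 8 held an *Ednra* UMI, with no order by genotype, and without thinning 67.3%, 76.0%, 60.1% and 58.8% did.

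Among the 13 types *Ednrb* was highest in endothelial cells, with the reverse order of *Edn1* among EdCs. Chamber EdCs held 1.92, 1.85, 2.01 and 1.45 in libraries 5, 6, 7 and 8, vascular ECs 0.610, 1.51, 1.47 and 0.898 and cushion EdCs 0.716, 0.445, 0.399 and 0.483. The chamber level exceeded the cushion level in every library, by 2.68 to 5.04 times, whereas *Edn1* was higher in cushion EdCs in every library. Vascular ECs overlapped both neighbours. Cushion MCs held 0.280 ± 0.0309, and all CM types held 0.136 or less on average. Macrophages and megakaryocytes averaged 0.275, but library 7, with 26 such cells, held 0.749 and the others 0.0833 to 0.141.

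In chamber EdCs, the contrast that chose the genes, *Ednrb* was 1.96 ± 0.0630 in controls and 1.65 ± 0.283 in *Tie2-cko* (± SD over 2 libraries), with both *Tie2-cko* libraries below both controls and a log2 fold change of -0.24 (SE 0.13). Library 6 lay next to control 5, and library 8 was the lowest. In cushion EdCs control 5 held 0.716 and the other libraries 0.399 to 0.483, so that the log2 fold change of -0.29 (SE 0.20) turned to 0.055 without control 5. In SV and AVC CMs the value was 0.92 (SE 0.58), with library 6 high as above, and it passed the threshold only with a block for libraries 5 and 6 against 7 and 8 (0.86, edgeR adjusted p = 0.0024).

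**Figure D4:**
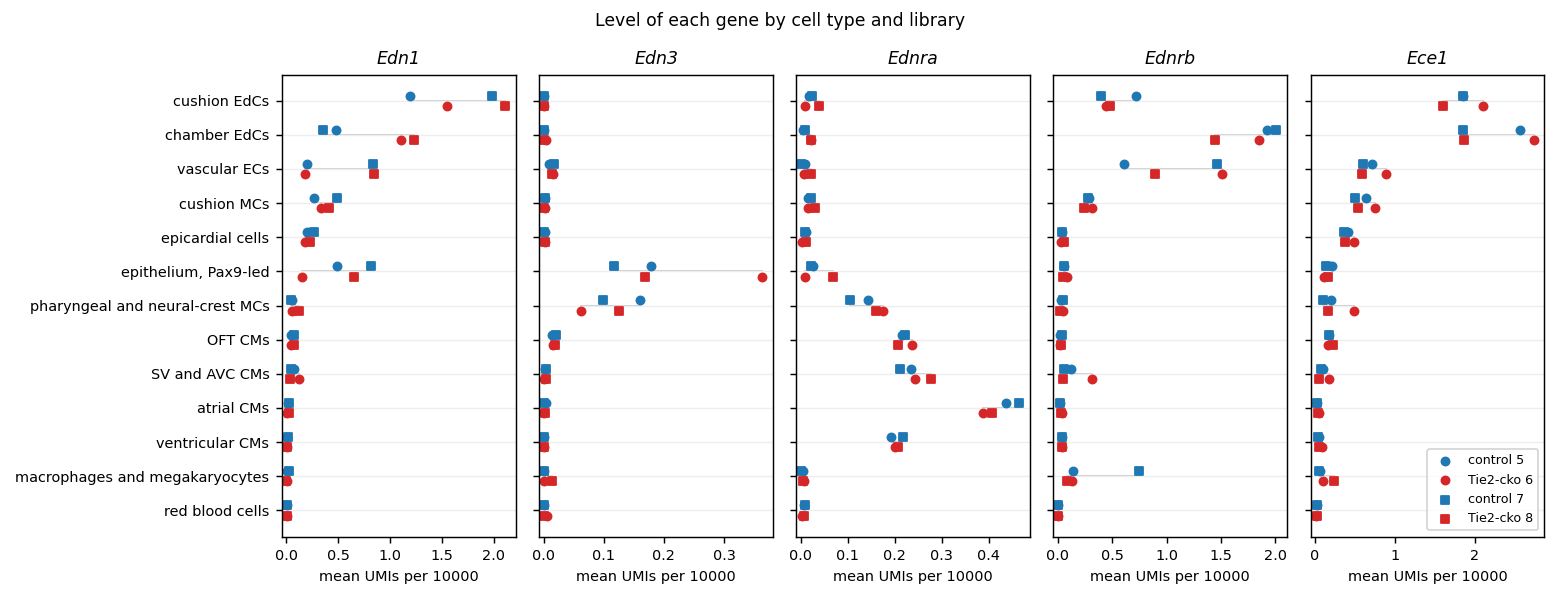
Mean level (x axis, UMIs per 10000) of each gene (panels) in the 13 cell types (rows) by library (blue, control; red, *Tie2-cko*; circles, libraries 5 and 6; squares, libraries 7 and 8). *Edn1* is highest in cushion EdCs, *Ednrb* and *Ece1* in chamber EdCs, *Ednra* in atrial CMs and *Edn3* in the *Pax9*-led epithelium, and each panel has its own scale.

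Within the endocardium, the share of cells with *Ednrb* was lower among cells with *Edn1* than among those without in each library. Of thinned chamber EdCs with an *Edn1* UMI, 38.5%, 37.5%, 32.0% and 26.4% in libraries 5, 6, 7 and 8 also held an *Ednrb* UMI, against 54.2%, 52.9%, 57.3% and 46.4% of those without. In cushion EdCs the shares were 20%, 10.0%, 12.6% and 10.9% with and 26.3%, 16.9%, 18.4% and 20.6% without. The order was the same in both cell types in all 4 libraries, in control and *Tie2-cko* alike. The same cells share a library, an equal number of thinned UMIs and sparse counts, so these shares are a description with no test. Chamber EdCs with *Edn1* had a higher sum of cushion markers than those without in all 4 libraries (2.35 against 2.11, 2.26 against 2.05, 2.77 against 2.23 and 2.65 against 2.63), the last by little. The sum of chamber markers in the same cells had no steady order (8.74 against 8.63, 10.4 against 9.96, 6.83 against 8.37 and 8.34 against 9.05). The vascular sum was lower with *Edn1* in all 4 libraries (0.659 against 0.853, 0.920 against 1.65, 0.413 against 0.593 and 0.704 against 0.878). Cushion EdCs with *Edn1* had a lower sum of cushion markers (7.91 to 8.39 against 9.17 to 10.8) and a higher sum of chamber markers (2.1 to 2.37 against 1.61 to 1.90) than those without.

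**Figure D5:**
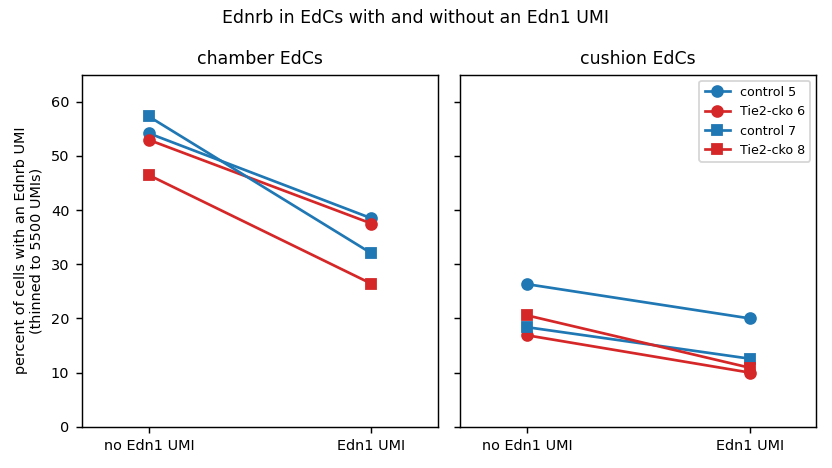
Percent of thinned cells with an *Ednrb* UMI (y axis) among EdCs without and with an *Edn1* UMI (x axis), 1 line per library (blue, control; red, *Tie2-cko*). All 8 lines fall from left to right, in chamber EdCs from 46.4% to 57.3% down to 26.4% to 38.5%.

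*Ece1*, the converting enzyme, was highest in both EdC types. Its level was 2.57, 2.74, 1.85 and 1.87 in chamber EdCs of libraries 5, 6, 7 and 8 and 1.85, 2.101, 1.85 and 1.61 in cushion EdCs, with overlapping ranges, and both lay above all other types. Vascular ECs (0.700 ± 0.138) and cushion MCs (0.608 ± 0.116) overlapped each other, and epicardial cells (0.412 ± 0.0579) came below them. Pooled CMs held 0.0653 to 0.103 and red blood cells 0.0191 to 0.0277. After thinning, 58.8% to 70.8% of chamber EdCs and 53.2% to 69.3% of cushion EdCs held an *Ece1* UMI, against 0.828% to 1.24% of red blood cells.

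The genotypes overlapped for *Ece1* in both EdC types. The log2 fold change was 0.05 (SE 0.19) in chamber EdCs, -0.12 (SE 0.14) in cushion EdCs and 0.13 (SE 0.18) in cushion MCs. In pooled CMs it was 0.12 (SE 0.15), with *Tie2-cko* at 0.103 and 0.0787 and controls at 0.0743 and 0.0653, which did not overlap. In pharyngeal and neural-crest MCs it was 0.81 (SE 0.40), with 0.485 in the 72 cells of library 6 and 0.107 to 0.201 in the other libraries. Neither passed the threshold, but the latter did with the block for libraries 5 and 6 against 7 and 8 (0.87, edgeR adjusted p = 0.045).

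Further genes of the pathway were read from 5 lists of 51 genes in all, and 0 of 519 combinations of listed gene and cell type outside chamber EdCs passed the threshold in edgeR, as did 0 of 663 in DESeq2. Other settings did make calls, 38 of 519 with the block for libraries 5 and 6 against 7 and 8. There were 12 of 644 without a filter on low counts, and leaving out 1 library made calls as well. Of all genes, the block called 3 to 204 per group outside chamber EdCs, from 3 of 10455 in red blood cells to 204 of 14636 in ventricular CMs. Its 38 calls included *Nppa*, abundant in CMs, in cushion MCs, epicardial cells, *Pax9*-led epithelium, vascular ECs and red blood cells. Others, such as *Rgs2* and *Rgs5* in cushion EdCs, were not CM genes of this kind. The source of these calls was not tested. Within cushion EdCs, *Mme*, the peptidase neprilysin that degrades endothelins, had the highest level of the 7 genes for ligand processing and clearance (0.118 and 0.151 in controls, 0.196 and 0.194 in *Tie2-cko*, log2 fold change 0.42, SE 0.21). It was the only one of the 7 with enough counts to be fitted there, and *Ece2*, a further converting enzyme, had a mean of 0.00891. Of the 22 genes for receptor coupling and desensitization, 22 were fitted in CMs, with a median log2 fold change of -0.001 beside 0.007 for all genes. *Gnai2*, a G protein subunit (1.94 and 2.17 in controls, 2.24 and 2.20 in *Tie2-cko*), and *Rock1*, a kinase of the cytoskeleton (1.57 and 1.43 against 1.64 and 1.40), had the highest levels in CMs.

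Of the 9 genes known to control *Edn1* in endothelium, *Klf2*, a flow-induced repressor of *Edn1*, and *Jun*, a part of AP-1, had the highest levels in both EdC types. In chamber EdCs *Klf2* was 1.55 and 1.89 in controls and 1.67 and 2.66 in *Tie2-cko* (log2 fold change 0.20, SE 0.24), and *Jun* was 1.05 and 1.35 against 1.63 and 1.54 (0.32, SE 0.15). In cushion EdCs *Klf2* was 8.43 and 8.12 against 8.63 and 8.19 (-0.02, SE 0.13). The median of the 9 was 0.20 in chamber EdCs, beside 0.004 for all genes, and 0.03 in cushion EdCs, beside 0.003. The list mixes a repressor such as *Klf2* with *Jun*, a part of AP-1, so its median has no direction for *Edn1*. Any part of these genes in the *Edn1* difference was not tested.

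Of the 7 neural crest genes downstream of *Edn1* and *Ednra*, 6 were fitted in pharyngeal and neural-crest MCs, with a median log2 fold change of 0.19 beside -0.001 for all genes. *Hand2* was 1.64 and 1.76 in controls and 2.99 and 1.65 in *Tie2-cko*, and *Hand1* was 1.60 and 1.33 against 2.90 and 1.31. Both factors of limb, arch and heart development were highest in the 72 cells of library 6. Of the 6 genes that endothelin-1 raises in cultured CMs, *Nppa*, the atrial natriuretic peptide gene, was 33.4 and 35.4 in controls and 31.4 and 27.0 in *Tie2-cko* in pooled CMs, a log2 fold change of -0.26 (SE 0.11, edgeR adjusted p = 1.00). *Myh7*, the slow myosin heavy chain, was 21.9 and 14.0 against 22.8 and 13.9 (-0.11, SE 0.29), and followed the pairs of libraries. The median of the 6 was -0.23 in pooled CMs, beside 0.007 for all genes.

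The genes most like each member over the 13 cell types were ranked by Pearson's r of log2 levels among 6348 genes, as a description. For *Edn1* these were *Col18a1* (r = 0.984), *Npdc1*, *Srgap1*, *Fcho2* and *Tgoln1* (0.929), all highest in cushion EdCs. For *Ednrb* they were *Cd93* (0.955), *Arpc3*, *Gimap1*, *Icam2* and *Arap3* (0.946), all highest in chamber EdCs or vascular ECs. For *Ece1* they were *Jcad* (0.984), *Galnt1*, *Fbn1*, *Spag9* and *Myo6* (0.955), and for *Ednra* *Pgm5* (0.972), *Mtus2*, *Apoo*, *Pfkm* and *D830030K20Rik* (0.947), the latter 5 highest in CM types. For *Edn3* they were *Sfrp2* (0.984), *Ppp2r2b*, *Tac2*, *Hoxa2* and *Crabp2* (0.933). Cell types of a library share its free RNA and its depth.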

How the data were processed

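Hearts of 2 control and 2 *Tie2-cko* libraries were grouped by their labels. UMI counts per gene and barcode were made by the authors with Cell Ranger (6.1.2 in the deposited file headers, another version in the methods) on mm10 per the labels, and deposited without normalization. The annotation is not given in the sources used here. Total counts per library were 169361996 to 259775540 UMIs.

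A barcode was kept when it held 500 or more genes and 1000 or more UMIs, with mitochondrial UMIs not above 10%. Doublets were scored with Scrublet (scanpy 1.11.5), and a share of 0.8% for every 1000 barcodes was dropped from the top of the scores, since no doublet removal is stated. Seurat 5.3.0 clustered the cells on 2000 variable genes (30 components, 20 neighbours, resolution 0.8), leaving out 57 genes compared here. Clusters were named by the type with most of its markers present (at least 3, and over 0.5 of its list), a marker being present at 0.25 of its highest cluster level, and 4 clusters stayed unnamed, 3 of them with low UMI numbers.

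A level is UMIs per 10000, averaged over cells within a library. For tests, the UMI counts of each cell type were added up within a library, filtered with filterByExpr and fitted with edgeR 4.0.16 (TMM, quasi-likelihood), with Benjamini-Hochberg adjustment over all genes of the type and a threshold of 0.05. The methods describe 2 hearts per genotype, all of 1 litter, and the labels do not tie hearts to libraries, so p-values measure the spread between libraries. DESeq2 1.42.0, R 4.3.3, limma 3.58.1, Python 3.11.15, numpy 2.4.6, pandas 2.3.3, scipy 1.17.1 and matplotlib 3.10.9 were also used. The fits were tested on simulated data. Genes were located in GENCODE M21 (GRCm38) by identifier, 32235 of 32285 matching, and promoters came from RefSeq.

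The genes, lists and alternatives were chosen with earlier results of these data known. Named are the 5 members, *Tek*, marker genes, the 5 genes most like each member (log2 of level + 0.05, genes reaching 0.3) and, as no listed gene passed, the 2 of highest level per list in the type described. The alternatives were stricter cell filters, no doublet removal, resolutions of 0.4 and 1.2, other tools and normalization, no count filter, a block for libraries 5 and 6 against 7 and 8, leaving out each library, and other depths of thinning.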

Additional observations from a re-analysis of the deposited data

Results flagged for a closer look

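The *Ednra* level lay apart between the genotypes in opposite directions in SV and AVC CMs and in atrial CMs. It was higher in both *Tie2-cko* libraries by 0.0380 UMIs per 10000 in SV and AVC CMs, and by 0.0432 in pharyngeal and neural-crest MCs, and lower in both in atrial CMs (a difference of -0.0539). The difference between these cell types was not tested, and no single one of the 3 passed its own test. After thinning, the share of cells with an *Ednra* UMI had no order by genotype in SV and AVC CMs or in atrial CMs. In pharyngeal and neural-crest MCs it was higher in both *Tie2-cko* libraries. How many of all genes lay apart in this way is not given here. At resolution 1.2, 57.0% of the 1854 SV and AVC CMs kept that name, and 2596 cells instead of 1789 were named atrial CMs. The log2 fold change in atrial CMs ranged from -0.19 to 9.89e-05 over the alternatives.

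An unnamed cluster of 1552 cells was left out of the comparisons because of its low UMI number (medians of 1672 to 1995 per library), although *Klhl4*, *Gpr182* and *Emcn*, genes of chamber EdCs, were among its leading genes. *Edn1* there averaged 0.294 UMIs per 10000 in *Tie2-cko* (0.288 and 0.301) and 0.206 in controls (0.197 and 0.214). Groups of 2 libraries are too small for a search for outlying samples.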

How the results depend on the processing

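No paired analysis was possible because the groups share no replicate number in the labels. The methods match control and mutant libraries by somite number without saying which go together, and the block for libraries 5 and 6 against 7 and 8 is an alternative that rests on no labelled pairing. The log2 change of *Edn1* in chamber EdCs stayed positive under all 13 alternatives (1.08 to 1.83 when 1 library was left out), and was 1.38 with the low-UMI cluster counted in, an alternative chosen after seeing the data. Leaving out 1 library moved *Edn1* in cushion EdCs between -0.25 and 0.42 (-0.15 without control 5, -0.25 without *Tie2-cko* 8) and *Ednrb* there between -0.58 and 0.0553 (without control 5). It moved *Ednra* in CMs between -0.11 and 0.062 (0.0579 without *Tie2-cko* 6, 0.062 without control 7), and in cushion MCs between -0.24 (without *Tie2-cko* 8) and 0.59. *Ece1* moved between -0.23 and -0.01 in cushion EdCs and between 0.01 and 0.26 in CMs. *Ednrb* in cushion EdCs turned to 0.12 at resolution 0.4, where 1520 cells carried that name instead of 1264 and no cells were named vascular ECs, and *Ece1* in CMs turned to -0.0435 without doublet removal, for which the cause was not tested. The difference in the share of chamber EdCs with *Edn1* was 20.5 percentage points, 29.3 without thinning and 13.9 at 3000 UMIs.

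The number of genes past the threshold depended on the method. DESeq2 called 3 in OFT CMs, 4 in SV and AVC CMs, 19 in chamber EdCs, 9 in cushion EdCs, 8 in cushion MCs, 9 in pharyngeal and neural-crest MCs, 6 in vascular ECs, 1 in ventricular CMs and 2 in CMs. Without a filter on low counts the numbers were 12 (OFT CMs), 23 (SV and AVC CMs), 10 (atrial CMs), 162 (chamber EdCs), 37 (cushion EdCs), 23 (cushion MCs), 10 (epicardial cells), 30 (*Pax9*-led epithelium), 45 (macrophages and megakaryocytes), 70 (pharyngeal and neural-crest MCs), 3 (red blood cells), 26 (vascular ECs) and 2 (ventricular CMs). With the block they were 44, 147, 24, 859, 117, 92, 68, 87, 11, 105, 3, 18 and 204 in the same order, and 46 in CMs. The block called 2 of 51 member values, *Ednrb* in SV and AVC CMs (0.86) and *Ece1* in pharyngeal and neural-crest MCs (0.87). It also called 38 of 519 combinations of listed gene and cell type, among them *Nppa* both in CM types and in several types of cell that are not CMs. Leaving out 1 library called listed genes as well. Unadjusted p-values under 0.05 numbered 804 in chamber EdCs and 38 to 335 in the other groups. With 2 libraries per genotype and few UMIs of *Edn3*, and of *Ednra* outside CMs, small differences were not detectable.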

Other observations

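The Lhx2-led unnamed cluster, with *Hlx*, *Colec11* and *Lum* among its leading genes, held *Ednrb* at 0.526, 0.632 and 0.5 UMIs per 10000 in libraries 5, 6 and 8 and 0.114 in the 14 cells of library 7. *Ednra* in the foregut mesenchyme came almost wholly from libraries 5 and 6, where these cells held 5.36% and 10.55% of the library's *Ednra* UMIs. *Edn3* in the same 2 libraries was also held by foregut mesenchyme (16.4% and 34.4% of its UMIs) and by epithelia other than the *Pax9*-led one (13.5% and 32.7%), against at most 4.74% in libraries 7 and 8.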
